A study of Mus musculus with 22 samples.

Results

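Chromatin accessibility in mouse frontal cortex 12 h after lipopolysaccharide (LPS) was set against saline in 5 of the 22 libraries of the series. The 3 LPS libraries (replicates 1, 3 and 4) and the 2 saline libraries (replicates 2 and 3) were taken by their labels, each from a separate animal. All 5 animals were adult male wild type C57BL/6J mice. All had corticosterone (CORT) in their water for 7 days, diisopropyl fluorophosphate (DFP) once by intraperitoneal injection on day 8, and intermittent CORT again over 5 weeks, as a model of Gulf War Illness. The LPS group is thus CORT+DFP+LPS at 12 h and the control is CORT+DFP+Saline at 6 h. No group without CORT and DFP was analysed here, so LPS was compared only on that background. Every saline library was collected at 6 h, so the effect of LPS and that of the 6 h difference in collection time cannot be told apart. The design text adds that another control animal was dropped because too few reads were obtained. Peak lists do not show read depth, and no error based on depth is given.

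LPS is a cell wall component of Gram-negative bacteria that is sensed by Cd14 and the receptor Tlr4. Signalling through Tlr4 releases NF-kB transcription factors into the nucleus and induces cytokine genes such as Il1b, mainly in myeloid cells, which in brain are the microglia and perivascular macrophages. Corticosterone acts through the glucocorticoid and mineralocorticoid receptors (Nr3c1 and Nr3c2) and restrains many of the same genes, while DFP blocks acetylcholinesterase. ATAC-seq cuts open chromatin with a transposase, so a peak marks an accessible promoter or distal element. In whole tissue, fewer cells of a type and fewer open copies per cell cannot be told apart.

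The 5 libraries held 217175 to 265193 distinct peak intervals. The LPS libraries had 231267 ± 12200 (SD, n = 3) and the saline libraries 242264 ± 32430 (SD, n = 2), a difference within the spread (exact permutation test over 10 splits, two-sided p = 0.6, where the smallest possible is 0.2). Bases covered, median peak width and the share of intervals within 1 kb of a gene end did not differ beyond the spread either (exact permutation, p of 0.8, 1.0 and 1.0). The labelled tissue was checked against marker genes. All 21 genes of the cortical layer list had peaks in every one of the 5 libraries, with 354 to 422 peaks per library against 291 to 383 in the hippocampus libraries. The 17 hippocampal markers had 170 to 198 peaks per library here and 254 to 324 in hippocampus. Saline replicate 2 stood apart from the other 4 libraries. It held the most peaks, and 36459 windows had a peak in it alone, against 12176 to 13116 for each of the others. Across the 34279 windows with a strong peak in all 5 libraries, the correlation of peak strength was 0.711 to 0.757 between saline replicate 2 and any other library, and 0.825 to 0.852 between the other libraries. These windows are shared by construction, and the values describe the libraries only. Its part in each result was not tested, and counts are given with and without it.

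Peaks were brought together in 347261 consensus windows, each reaching 250 bp to either side of a summit. A window was gained if all 3 LPS libraries and neither saline library had a peak there, and lost if both saline libraries and no LPS library had one. There were 3254 gained windows (0.937% of all windows) and 4205 lost windows (1.21%), against 160157 with a peak in all 5 libraries. Single libraries accounted for many of the rest: 49127 windows had a peak in 1 saline library and no LPS library, and 38378 in 1 LPS library and no saline library. With 3 libraries against 2, Fisher's exact test on one window cannot give a p below 0.1, so gained and lost are descriptions and no window passed a test. The counts moved strongly with the controls. Without saline replicate 2 there were 13384 gained and 16873 lost windows, and without saline replicate 3 there were 9438 and 40664. Leaving out 1 LPS library gave 5597 to 7153 gained windows and 5970 to 7794 lost windows. Which kind was more frequent was not stable. Gained windows outnumbered lost ones without LPS replicate 1 (7153 against 5970). They also did so when only the 150000 strongest peaks of each library (2417 against 2063) or the 50000 strongest (964 against 764) were counted. Weaker peaks then counted as absent, so such a window need not be free of any peak in the other group.

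**Figure D1:**
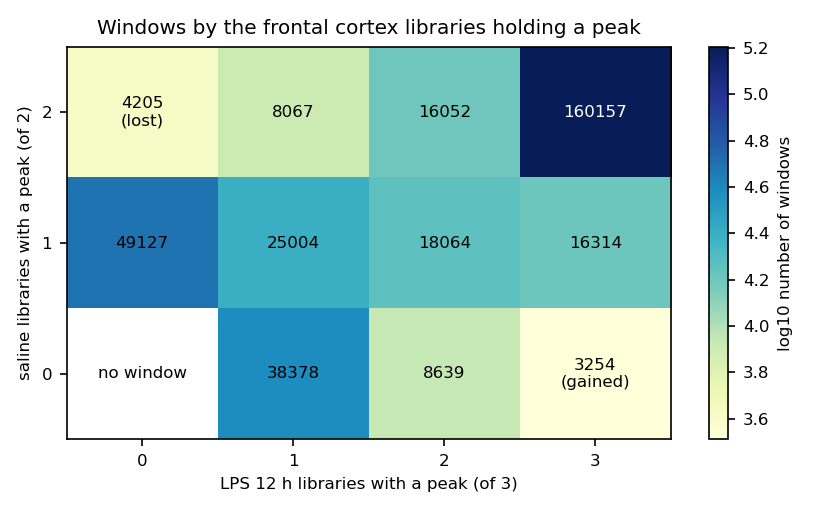
Number of consensus windows by how many of the 3 LPS 12 h libraries (x axis) and of the 2 saline libraries (y axis) had a peak in them, with colour on a log10 scale. Windows with a peak in all 5 libraries (160157) far outnumber the gained (3254) and lost (4205) windows in the opposite corners.

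Both kinds of window were weak sites, as were other windows with a peak in only some of the libraries. Peak strength is given as a percentile within the library, with 100 for the strongest of its summits by the deposited -log10 p. In gained windows the median percentile was 23.5, 26.0 and 24.7 in LPS replicates 1, 3 and 4, and in lost windows 24.0 and 16.9 in saline replicates 2 and 3. Windows with a peak in all 5 libraries had medians of 66.2 to 71.6. Only 13 gained and 7 lost windows lay above the 50th percentile in every library of their group. Most of both kinds lay inside a gene, 56.3% of gained and 62.9% of lost windows against 60.6% of all windows. Of the gained windows, 5.16% lay within 1 kb of a gene end, against 6.96% of the 29385 windows with a peak in any 3 of the 5 libraries and 9.69% of all windows. Beyond 100 kb from any protein-coding gene lay 20.0% of them, against 14.8% and 13.2%. Of the lost windows, 8.87% lay within 1 kb of a gene end and 10.3% beyond 100 kb, against 7.13% and 13.6% of the 37848 windows with a peak in any 2 of the 5 libraries.

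The gained window with the highest strength in its weakest LPS library lay 171 bp outside Ckap2l, a mitotic spindle gene, and 31570 bp from Il1a and 96530 bp from Il1b (chr2:129267539-129268039, GRCm38). It stood at percentile 79.8, 66.1 and 80.1 in LPS replicates 1, 3 and 4, with a deposited fold over background of 6.36, 5.67 and 6.91, and no peak in either saline library. The authors' deposited table lists the same place as up at 12 h (chr2:129267651-129267910, FDR 0.0352). Il1a and Il1b encode interleukin-1 alpha and beta, early cytokines of the LPS response. A second gained window lay 428 bp from Il1a (chr2:129310614-129311114; percentiles 27.7, 19.3 and 23.5) and another 9488 bp from Il1b (chr2:129380652-129381152; 8.18, 7.88 and 47.1). These were 3 of the 29 windows between 10 kb before Ckap2l and 10 kb beyond Il1b, a stretch chosen after its values were seen. Of the 29, 14 had a peak in all 5 libraries, including those inside Il1b and 992 bp from it, and none was lost. The locus was thus accessible in saline too. Of the 29, 7 had peaks in LPS libraries only, among them the 3 gained ones, and 3 in saline libraries only. The window beside the gained one at Il1b (chr2:129380120-129380620) had a peak in 3 LPS libraries and 1 saline library. At -log10 q of 2 or more the gained window at Il1b kept a peak in 1 LPS library. At -log10 q of 5 or more the one at Il1a had a peak in no library. All 3 gained windows were found again at other times: the one at Ckap2l in 3 of 3 cortex libraries at 6 h and 3 of 3 at 24 h, the one at Il1a in 2 and 2, and the one at Il1b in 3 and 3.

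The other 9 strongest gained windows had no single theme. Plpp4, a phospholipid phosphatase gene, held one inside its body (chr7:129303999-129304499) at percentiles 64.5, 65.3 and 68.0. Tapt1, which encodes a transmembrane protein of skeletal patterning, had one at 58.0, 59.4 and 59.3. Gabra3, a GABA-A receptor subunit gene, had one at 55.9, 66.5 and 61.4, which no hippocampus library of the 12 h or saline groups shared. A window 22001 bp from Slc7a10, a neutral amino acid transporter gene, and 41666 bp from Cebpa, a myeloid transcription factor gene, stood at 74.7, 52.0 and 77.3. One 2254 bp from Tspan32, a tetraspanin gene of blood cells, and 30510 bp from Cd81 stood at 52.7, 61 and 51.7. The remaining 4 lay 86691 to 220257 bp from the nearest gene, which was Mllt3, Il3ra, Plppr4 or Chl1. All 10 kept a peak in 3 LPS and 0 saline libraries when only peaks with -log10 q of 5 or more were counted. With only the 50000 strongest peaks of each library, none did. Both hippocampus saline libraries had a peak at the windows of Plpp4, Plppr4 and Il3ra. Just 1 had one at those of Ckap2l, Chl1, Mllt3 and Tspan32, and neither at those of Tapt1, Gabra3 and Slc7a10. At least 2 of 3 cortex libraries at 6 h and at 24 h had a peak at each of the 10.

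The strongest lost windows were lower in strength than the gained ones, and 6 of the 10 lay outside genes. Efcab6, a calcium-binding protein gene, held the first inside its body (chr15:83869464-83869964) at percentiles 58.0 and 59.1 in saline replicates 2 and 3. One 71140 bp from Arsj, a sulfatase gene, stood at 57.5 and 58.5. Lrp1b and Tenm2, genes of a lipoprotein receptor relative and a synaptic adhesion protein, held one each at 51.4 and 57.3 and at 49.4 and 56.7. A window 120268 bp from Dusp6, a phosphatase gene of the ERK pathway, stood at 49.8 and 58.6. Tnp1, Lipo4 and Kbtbd12 were each the nearest gene of another. Those at Tenm2 and Kbtbd12 belong to wider peaks that reached into neighbouring sequence in all 3 LPS libraries, so there only part of a site was without a peak. Outside the 5 libraries, several were not absent under LPS: those at Efcab6, Lipo4 and Lrp1b, for example, had a peak in 3 of 3 LPS cortex libraries at 6 h.

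**Figure D2:**
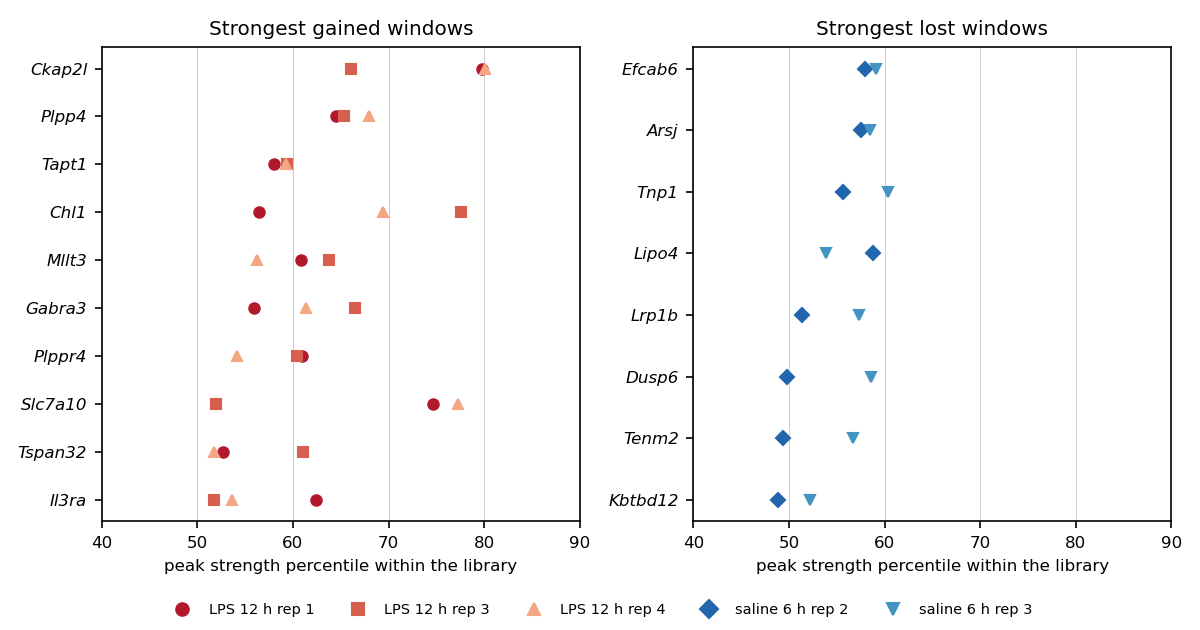
Strength percentile within the library (x axis) of the gained and lost windows named in the text, out of the 10 per direction that rank highest in the weakest library of their group, by nearest protein-coding gene. Each symbol is 1 library, and libraries of the other group have no peak. Gained windows reach 80.1 at Ckap2l, and none of the lost windows shown exceeds 60.4.

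Promoters were seldom involved. A promoter was taken as 250 bases before to 50 after a RefSeq transcript start, and a window was placed on it where they overlapped by at least 150 bp. There were 41 gained windows on promoters (1.26% of gained windows) and 55 lost ones (1.31%), against 3.78% of all windows and 1.24% of those with a peak in 3 of 5 libraries. The promoters named here were chosen after their values were seen. The strongest gained one was that of Bcl3, a nuclear IkB family member that tunes NF-kB output, at percentiles 48.5, 44.3 and 63.5 in the LPS libraries. All 3 cortex libraries at 6 h and all 3 at 24 h had it, but so did both hippocampus saline libraries. The others given with values were picked for their known roles in innate immunity and are a minority of the 41. Slfn2, an interferon-induced gene, stood at 49.8, 28.6 and 36.4. Aoah, whose enzyme removes acyl chains from LPS and inactivates it, stood at 12.4, 30.0 and 29.9. Trim30d, of an interferon-induced TRIM family, stood at 34.1, 49.6 and 11.5, and Nlrp3, the inflammasome sensor through which interleukin-1 beta is processed, at 21.1, 35.6 and 18.6. Of the cortex libraries at 6 and 24 h, 2 of 3 and 3 of 3 had the peak at Slfn2 and at Aoah, 1 and 3 that at Trim30d, and 1 and 1 that at Nlrp3. Both hippocampus saline libraries had it at Slfn2 and Nlrp3, 1 at Trim30d and 0 at Aoah. Stat5b, Plek, Siglece and Slamf6 promoters were gained too, and all of these but that of Siglece had a peak in both hippocampus saline libraries. Only that of Bcl3 among the 5 given with values kept its pattern at -log10 q of 5 or more; Aoah then had a peak in no library, and Nlrp3, Slfn2 and Trim30d in 1 each. Lost promoters included Laptm4a, a lysosomal membrane protein gene (38.8 and 33.4 in saline replicates 2 and 3; 1 LPS library had a peak there if any overlap of 1 bp counted), Pdgfd, a growth factor gene (27.2 and 31.3), and Steap4, a metalloreductase gene (19 and 13.2).

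The promoter sequences of 5 gained and 2 lost windows are shown because a peak was called on them in every library of 1 group and in none of the other. They are RefSeq sequences of GRCm38.p6, in the direction of the gene, 300 bases each. They come from chr7:19822706-19823005 (minus strand, Bcl3), chr11:83064862-83065161 (plus, Slfn2), chr13:20793863-20794162 (plus, Aoah), chr7:104507800-104508099 (minus, Trim30d), chr11:59541319-59541618 (plus, Nlrp3), chr12:8921057-8921356 (plus, Laptm4a) and chr5:7960222-7960521 (plus, Steap4). Capitals mark matches to the motifs named after the sequences.
Bcl3: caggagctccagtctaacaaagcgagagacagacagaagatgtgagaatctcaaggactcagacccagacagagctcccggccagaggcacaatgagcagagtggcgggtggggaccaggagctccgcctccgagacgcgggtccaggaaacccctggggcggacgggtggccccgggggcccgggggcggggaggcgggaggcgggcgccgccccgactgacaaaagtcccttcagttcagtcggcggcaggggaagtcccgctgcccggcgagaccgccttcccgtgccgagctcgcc
Slfn2: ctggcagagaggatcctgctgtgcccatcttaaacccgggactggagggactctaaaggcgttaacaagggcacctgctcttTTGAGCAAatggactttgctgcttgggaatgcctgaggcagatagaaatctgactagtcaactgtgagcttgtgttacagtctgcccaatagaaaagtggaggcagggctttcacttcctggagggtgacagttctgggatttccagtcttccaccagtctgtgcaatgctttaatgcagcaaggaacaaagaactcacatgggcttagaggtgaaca
Aoah: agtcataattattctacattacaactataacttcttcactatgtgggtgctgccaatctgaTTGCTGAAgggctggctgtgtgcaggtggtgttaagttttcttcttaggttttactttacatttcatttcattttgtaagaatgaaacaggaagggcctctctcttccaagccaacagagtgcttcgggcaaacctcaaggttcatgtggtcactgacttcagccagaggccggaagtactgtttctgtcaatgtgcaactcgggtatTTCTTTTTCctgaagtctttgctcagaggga
Trim30d: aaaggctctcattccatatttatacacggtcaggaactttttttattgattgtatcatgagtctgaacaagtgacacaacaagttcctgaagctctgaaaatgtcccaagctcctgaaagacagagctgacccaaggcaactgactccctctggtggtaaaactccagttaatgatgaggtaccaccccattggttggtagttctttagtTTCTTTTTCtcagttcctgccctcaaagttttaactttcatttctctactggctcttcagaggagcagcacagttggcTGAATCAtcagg
Nlrp3: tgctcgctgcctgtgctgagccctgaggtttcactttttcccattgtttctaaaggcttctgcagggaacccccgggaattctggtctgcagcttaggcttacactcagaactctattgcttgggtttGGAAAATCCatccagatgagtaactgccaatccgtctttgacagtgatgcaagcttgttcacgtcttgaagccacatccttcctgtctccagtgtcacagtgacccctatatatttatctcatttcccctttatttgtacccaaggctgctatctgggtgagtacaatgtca
Laptm4a: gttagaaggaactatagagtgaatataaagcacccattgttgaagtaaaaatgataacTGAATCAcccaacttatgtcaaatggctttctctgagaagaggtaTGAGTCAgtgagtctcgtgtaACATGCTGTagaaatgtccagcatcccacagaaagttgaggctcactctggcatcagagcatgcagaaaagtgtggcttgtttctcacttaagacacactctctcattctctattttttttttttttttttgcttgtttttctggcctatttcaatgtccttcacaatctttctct
Steap4: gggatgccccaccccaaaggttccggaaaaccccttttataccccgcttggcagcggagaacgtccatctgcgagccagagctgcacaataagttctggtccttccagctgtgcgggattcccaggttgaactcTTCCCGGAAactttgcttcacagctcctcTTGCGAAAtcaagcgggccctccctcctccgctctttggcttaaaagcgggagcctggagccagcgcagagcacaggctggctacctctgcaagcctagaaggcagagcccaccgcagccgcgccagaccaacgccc
The 8 motifs searched on both strands were NF-kB (GGANTTTCC), AP-1 (TGANTCA), the STAT element (TTCNNNGAA), the interferon element (GAAANNGAA), C/EBP (TTGCNNAA), the core of the glucocorticoid element (ACANNNTGT), the cAMP element (TGACGTCA) and the E-box (CACGTG). Matches of different motifs may overlap. These words were settled after the windows were known, and longer forms of the NF-kB, interferon and glucocorticoid words tried first gave other counts. The promoter of Bcl3 holds none of the 8 words as written. Other spellings of sites for the same factors were not counted, so it is not shown to lack such sites. Nlrp3 holds 1 NF-kB match, Slfn2 holds 1 C/EBP match, Aoah 1 C/EBP and 1 interferon element, and Trim30d 1 AP-1 and 1 interferon element. On the lost side, Laptm4a holds 2 AP-1 matches and 1 glucocorticoid core, and Steap4 1 STAT element and 1 C/EBP match. Of the 44 promoters at gained windows 7 held the interferon element (15.9%), 10 C/EBP (22.7%) and 2 NF-kB (4.55%), against 8.56%, 10.8% and 1.25% of all 32851 promoters. Of the 60 promoters at lost windows 4 held the interferon element (6.67%), 12 C/EBP (20.0%) and 0 NF-kB. AP-1 letters were in 4 gained promoters (9.09%), 8 lost ones (13.3%) and 7.81% of all, and the glucocorticoid core in 4 (9.09%), 7 (11.7%) and 6.85%. The STAT element was in 1 gained promoter (2.27%), 8 lost ones (13.3%) and 8.3% of all, and the E-box in 2 (4.55%), 3 (5.0%) and 7.15%. The cAMP element was in none of either set and in 1.79% of all. These shares are descriptions of small sets, with some promoters from the same gene.

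Genes of known pathways were examined through 18 lists of 376 genes, counting windows whose nearest protein-coding gene was on the list and within 100 kb. Over all windows so assigned, 0.863% were gained and 1.25% lost. The lists were chosen with earlier results known, and windows of one gene are not independent, so counts are given without a test. The inflammatory and NF-kB list had the joint highest gained share, 8 of 481 windows (1.66%, exact binomial 95% interval 0.721 to 3.25, for counting error only), and 5 lost (1.04%). Its interval includes the share over all windows. The 8 gained windows belonged to 8 genes. Besides Bcl3, Il1a and Il1b, they were at the LPS receptor genes Cd14 (4709 bp away; percentiles 37.5, 40.6 and 33.5) and Tlr4 (11551 bp away; 45.6, 56.5 and 30.7), and at Il1r1, the interleukin-1 receptor gene (48.9, 31.3 and 17.6). Osmr and Cebpb had windows below percentile 1 in 1 LPS library. The one at Cebpb was no longer gained when any overlap of 1 bp counted, since both saline libraries then had a peak there. The 5 lost ones were at Socs3, a cytokine signalling inhibitor gene (31399 bp away; 32.1 and 32.7 in saline replicates 2 and 3), Nfkbiz (2 windows), Ptges and Cebpb. The interferon list had 0 gained and 3 lost of 130 windows, at Irf1 and Ifih1. Its lost share of 2.31% was the highest of the 18 lists (exact binomial 95% interval 0.478 to 6.6). That interval includes the 1.25% over all assigned windows, and with genes within 10 kb the share was 0.901%.

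Glucocorticoid and stress axis genes had 6 gained (0.917%) and 7 lost (1.07%) of 654 windows, near the 0.863% and 1.25% over all assigned windows. Klf9, a glucocorticoid-induced transcription factor gene, had a gained window inside its body (52.0, 50.3 and 44.9 in LPS replicates 1, 3 and 4) and a lost one 18917 bp away (17.5 and 21.8 in saline). Nr3c1 had a gained window 249 bp away (31.3, 6.51 and 45.4) and Nr3c2 had 2 inside its body. When any overlap of 1 bp counted, the one at Nr3c1 and 1 of the 2 at Nr3c2 had a peak in both saline libraries as well and were no longer gained. Fkbp5, the receptor's cochaperone gene, had a lost window (59.9 and 30.0), as did Sgk1, a glucocorticoid-induced kinase gene, at 26637 bp (18.3 and 37.6). The window at Sgk1 had no peak in any cortex library at 6 or 24 h.

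Neuronal lists lay on both sides of the shares over all assigned windows. The 31 synaptic genes had 41 gained (1.12%) and 44 lost (1.20%) of 3655 windows. Grm5, a metabotropic glutamate receptor gene, had at least 2 gained intragenic windows (42.0, 49.6 and 34.3 for the strongest). Grin2b, an NMDA receptor subunit gene, had at least 4 lost ones, of which the strongest stood at 56.8 and 39.5 in saline replicates 2 and 3. Immediate early genes had 1 gained (0.290%, near Fosb) and 5 lost (1.45%) of 345 windows, with losses at Bdnf, Nr4a3, Homer1, Nr4a1 and Egr2. Cholinergic and esterase genes had 1 gained (0.27%) and 3 lost (0.809%) of 371 windows, both below the shares over all assigned windows. The gained one was at Chrna4, a nicotinic receptor subunit gene, and all 3 lost ones at Chrm3, a muscarinic receptor gene. Cortical layer genes shared the highest gained share, with 13 gained (1.66%, exact binomial 95% interval 0.889 to 2.83) and 10 lost (1.28%) of 781 windows. The lower end of that interval lies just above the 0.863% over all assigned windows. It covers counting error only, for a list that is among 18, and windows of one gene are not independent. Inhibitory neuron genes had 7 gained (1.38%) and 3 lost (0.589%) of 509, and excitatory neuron genes 4 (0.578%) and 11 (1.59%) of 692. Circadian clock genes, listed because the groups differ in hour of collection, had 6 gained (0.873%) and 9 lost (1.31%) of 687, of which 2 and 5 at Rora.

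Among cell type lists, microglial genes had 3 gained windows (1.2%, exact binomial 95% interval 0.249 to 3.48) and none lost (interval up to 1.47%) of 249, and both intervals include the share over all assigned windows. The gained ones were near Ctss, a lysosomal protease (27.3, 33.0 and 31.4), Fcrls (48.7, 26.8 and 56.3) and Tyrobp, an adaptor of microglial receptors (15.5, 17 and 37.8). Blood leukocyte and erythroid genes had 1 gained window (0.971%), inside Ptprc, the pan-leukocyte gene, and none lost of 103. Astrocyte genes had 0 gained and 3 lost (1.01%) of 298, and oligodendrocyte lineage genes 1 (0.312%) and 3 (0.938%) of 320. Endothelial and mural genes had 3 (0.987%) and 4 (1.32%) of 304, and choroid plexus genes 2 (1.63%) and 1 (0.813%) of 123. All 20 microglial genes had peaks in every one of the 5 libraries, with 113 to 133 peaks per LPS library and 113 to 118 per saline library. The 22 blood cell genes had 37 to 42 peaks per LPS library and 31 to 54 per saline library. On both counts the groups overlap, and the part of a changed cell makeup in the windows above was not tested.

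The genes with the widest gap between gained and lost windows were mostly long neuronal genes, which hold many windows. Ntm, a neuronal adhesion gene, had 10 gained and 1 lost of 337 windows, and Magi2, a synaptic scaffold gene, 10 and 2 of 340. Naaladl2 had 6 gained and 0 lost of 86, and Bin1, a membrane-curving gene of only 59 kb, 5 and 0 of 44 (11.4%). On the lost side, Auts2 had 2 gained and 8 lost of 268, Camta1 1 and 7 of 242, and Tenm2 1 and 6 of 280. Map2, the dendritic microtubule protein gene, had 0 gained and 5 lost of 93 (5.38%), and Sec14l1 0 and 5 of 59 (8.47%). Of the 18747 genes with windows within 100 kb, 2039 had a gained window and 2895 a lost one, and 720 had both.

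The 17 libraries that did not define the windows gave a check. Gained windows had a peak in 78.5% ± 6.71 of cases in LPS cortex at 24 h and in 58.9% ± 13.5 at 6 h (SD, n = 3 each). The 29385 windows with a peak in any 3 of the 5 libraries reached 67.1% and 51.9% there. Lost windows had a peak in 38.9% ± 8.32 at 24 h and 30.5% ± 9.58 at 6 h (SD, n = 3 each), against 45.6% and 30.9% for windows with a peak in any 2. Most of these peaks were weak: when only the 150000 strongest peaks of each other library counted, gained windows had one in 12.0% at 24 h and 8.2% at 6 h, below the 12.5% to 15.8% of the hippocampus groups, whereas with all peaks both cortex means lay above every hippocampus mean. Of the gained windows, 56.9% had a peak in 3 of 3 cortex libraries at 24 h and 26.8% in 3 of 3 at 6 h, and 33.4% of the lost windows had none at 24 h. In hippocampus, which comes from the same animals, gained windows had a peak in 46.6% ± 4.36 at 12 h after LPS (SD, n = 3), and the saline value was 38.9% ± 1.87 (SD, n = 2). Each of the 3 LPS libraries, from 42.0% to 50.7%, lay above both saline ones, 37.6% and 40.2% (exact permutation test, two-sided p = 0.2, the smallest that 10 splits allow). With all 9 LPS libraries of hippocampus the exact permutation p was 0.218 over 55 splits. Windows with a peak in any 3 of the 5 libraries reached 46.5% ± 4.48 in hippocampus at 12 h after LPS (SD, n = 3), near the gained ones. In hippocampus saline they reached 48.3% ± 10.6 (SD, n = 2). For lost windows the hippocampus saline libraries differed widely, 53.2% in replicate 2 and 29.7% in replicate 3, against 34.3% ± 3.73 at 12 h after LPS (SD, n = 3; exact permutation p = 0.8). Windows with a peak in any 2 of the 5 libraries also had one more often in hippocampus saline replicate 2 (46.5%) than in replicate 3 (31.5%). Replicate 2 in hippocampus is the animal whose cortex library stood apart, and its hippocampus library held the most peak intervals of the 22 libraries (307140).

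**Figure D3:**
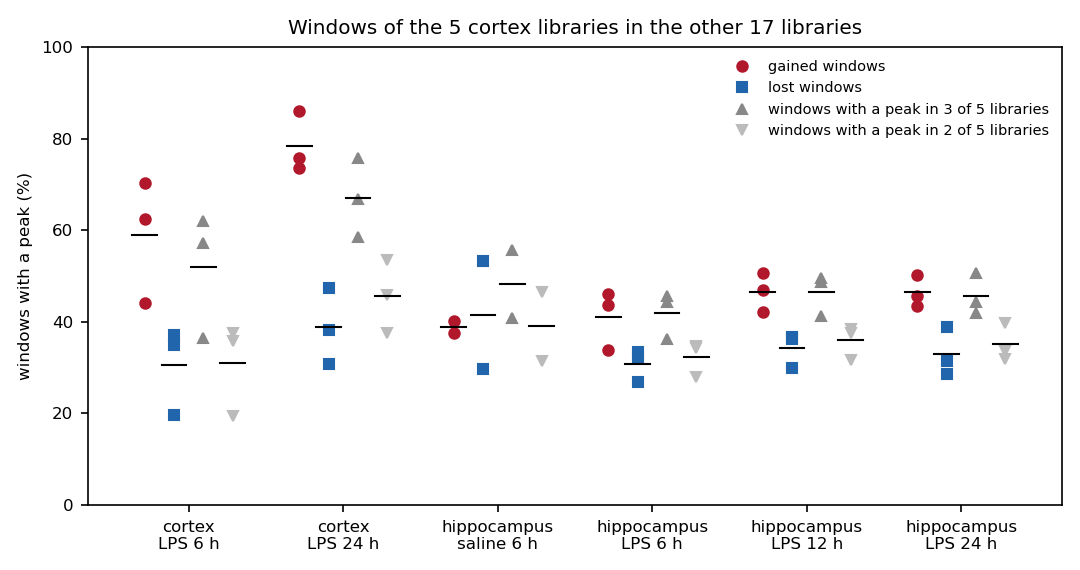
Share of gained and lost windows, and of windows with a peak in any 3 or any 2 of the 5 defining libraries, that have a peak in each of the 17 other libraries (y axis, percent), by group. Points are libraries and bars are group means. Gained windows reach 78.5% on average in cortex at 24 h, and the 2 hippocampus saline libraries lie apart for lost windows (53.2% and 29.7%).

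Where every library has a strong peak, strength itself can be compared. Peaks were ranked within each library among its 50000 strongest, ranks were turned into normal scores (about 0 at the middle rank, in SD units), and 34279 windows with such a peak in all 5 libraries were tested with limma. No window was stronger and none weaker in LPS at a Benjamini-Hochberg adjusted p under 0.05 (0% called in either direction). At an unadjusted p under 0.05 there were 1395 stronger (4.07%) and 842 weaker (2.46%), and the smallest adjusted p was 0.105. In 4271 windows (12.5%) every LPS library ranked above both saline libraries, and in 3170 (9.25%) every one ranked below. With only 10 ways to split 5 libraries into 3 and 2, libraries without a group difference would separate so in about 10% of windows per direction. The 12.5% and 9.25% lie near that share. The median absolute difference was 0.21 and the median standard error 0.275. Calls appeared when a saline library was left out: 18 stronger and 0 weaker without replicate 2, and 928 stronger and 315 weaker without replicate 3, where replicate 2 is the only control and its spread is taken from the LPS libraries.

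The lowest p belonged to a distal site on chromosome 10 (chr10:35229493-35229993), 478698 bp from the nearest gene, Amd2. It ranked 7391, 5182 and 3929 in LPS replicates 1, 3 and 4 and 33305 and 35102 in saline replicates 2 and 3, so the groups were far apart. The difference was 1.72 ± 0.227 (SE; limma adjusted p = 0.105). A site inside Cd84, a leukocyte adhesion receptor gene of the SLAM family, ranked 5786, 3206 and 5711 in LPS and 24567 and 15800 in saline, a difference of 1.06 ± 0.218 (SE; limma adjusted p = 0.762). Sites inside Gopc, a Golgi trafficking gene, and Lpp, a focal adhesion gene, were higher by 1.27 and 2.0. Among the lowest p on the other side were sites near Katnal1 (-1.57), a microtubule severing gene, inside Tmem182 (-1.34), and 191656 bp from Gja1 (-0.957), a connexin gene. The deposited fold over background was lower in every LPS library at Tmem182 and Gja1, but not at Katnal1, where it was 4.18, 4.82 and 4.41 in LPS and 4.38 and 4.16 in saline. None of these passed the adjusted threshold. In the inflammatory and NF-kB list the median difference over 46 windows was 0.0298, against 0.0356 over all windows, with 3 windows above and 0 below at unadjusted p under 0.05.

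**Figure D4:**
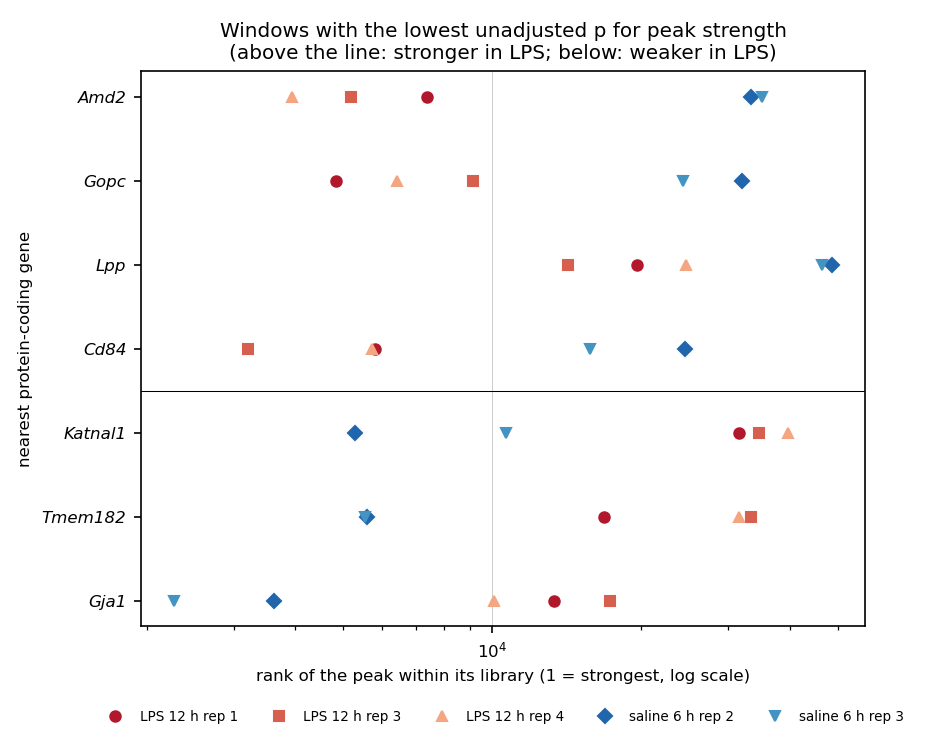
Rank within the library (x axis, log scale, 1 is the strongest peak) of the windows named in the text, out of the 10 per direction with the lowest unadjusted limma p, by nearest protein-coding gene. Each symbol is 1 library. In every row the 3 LPS libraries lie on one side of both saline libraries, which follows from choosing rows by low p. The smallest adjusted p was 0.105.

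The authors tested the same 5 libraries on reads with csaw, a window-based differential test, and the authors' deposited table for cortex at 12 h lists 52 regions, 7 up and 45 down in LPS. Set against the 347261 windows, these regions meet 7 windows (0.00202%) and 46 windows (0.0132%). No fold change is given there, and since the regions were chosen on these libraries the peaks are a description. All 7 up regions had a peak in all 3 LPS libraries, and 5 had none in saline. In each of the 7, every LPS library stood above both saline libraries in strength percentile. The lowest FDR of the up regions in the authors' deposited table, 0.00142, was for a region inside Itpr2, an intracellular calcium release channel gene (chr6:146221301-146221710), with percentiles of 80.1, 71.8 and 82.6 in LPS replicates 1, 3 and 4 and 9.47 and 41.8 in saline replicates 2 and 3. A region 114419 bp from Cebpb, a transcription factor gene of the acute phase response (chr2:167804851-167805360), had an FDR of 0.00259 in the authors' deposited table and stood at 73.0, 56.9 and 66.9, with 15.6 in saline replicate 2 and no peak in saline replicate 3. Snx1, an endosomal sorting gene, held a region with the same FDR of 0.00259 in the authors' deposited table, at 50.4, 39.9 and 60.5 and with no saline peak. The others in the authors' deposited table lay 1841 bp from Rad51b (FDR 0.0144), 300 bp from Ckap2l as given above, 58515 bp from Mllt3 (FDR 0.0374) and 190060 bp from Gm38457 (FDR 0.0127).

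The down regions were marked by one control library. All 45 had a peak in saline replicate 2, at percentiles from 72.0 to 99.2 (median 90.8), and in all 45 that library was the strongest of the 5. Saline replicate 3 had a peak in 26 of them (median percentile 42.5 where present), and LPS replicates 1, 3 and 4 in 13, 26 and 33 (medians 54.8, 47.7 and 44.5). Saline replicate 3 stood above every LPS library in 7 regions and below the strongest LPS library in 27, and in 11 regions only saline replicate 2 had a peak. None had a peak in both saline libraries and no LPS library, so no down region had the pattern of a lost window. In 12 of them all 5 libraries had a peak, as 220005 bp from Nrsn1, a neuronal vesicle gene, where the percentiles were 99.0 and 78.9 in saline replicates 2 and 3 and 80.9, 79.3 and 88.1 in LPS replicates 1, 3 and 4. The same animal's hippocampus library had a peak in 41 of the 45 (91.1%), and the other hippocampus saline library in 21 (46.7%).

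Among the down regions with low FDRs in the authors' deposited table were those 8371 bp from Nsun2, an RNA methyltransferase gene (FDR 0.000552), and 6807 bp from Mtm1, a lipid phosphatase gene (FDR 0.000875), both with a peak in saline replicate 2 alone. Another down region was 10654 bp from Il1rl1, the interleukin-33 receptor gene (FDR 0.0202 in the authors' deposited table), at 93.9 and 23.6 in saline replicates 2 and 3, no peak in LPS replicate 1, and 27.1 and 44.5 in LPS replicates 3 and 4. One was 19943 bp from Irf2, an interferon regulatory factor gene (FDR 0.0402 in the authors' deposited table), at 84.5 and 12.8 in saline and 34.1, 43.3 and 46.8 in LPS. Regions inside the neuronal genes Cacna1e, Grid1, Ptprd and Trio had FDRs from 0.0144 to 0.0473 in the authors' deposited table. In them saline replicate 2 stood at 73.9 to 94.9. Of the 45 down regions, 30 were listed as down again in the authors' deposited table for cortex at 6 h and 34 in that for 24 h, and of the 7 up regions 3 and 6 as up. Those tables use the same 2 saline libraries.

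**Figure D5:**
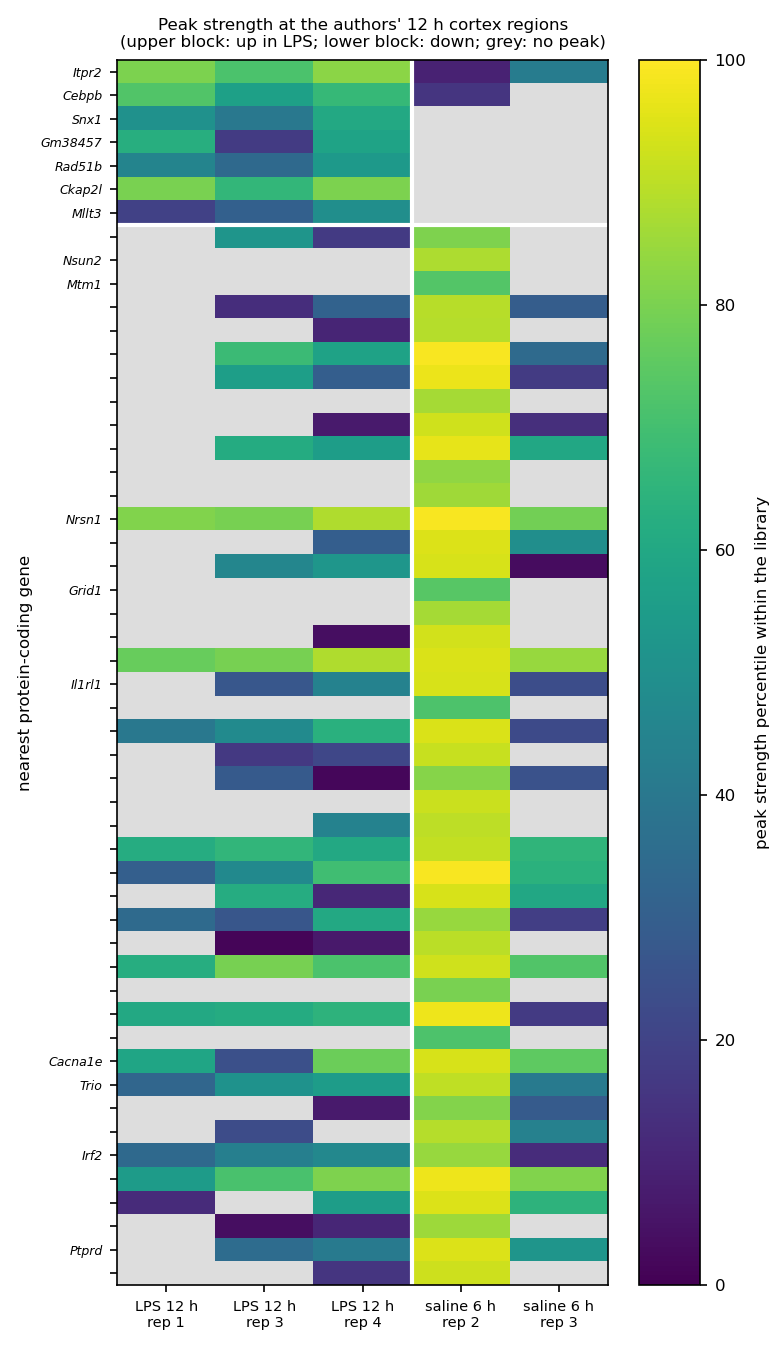
Strength percentile of the peak (colour) in each of the 5 libraries (columns) at the 52 regions of the authors' deposited table for cortex at 12 h (rows in order of FDR within direction, with the nearest protein-coding gene written where the text names it), with grey for no peak. All 3 LPS columns are above both saline columns in the 7 up regions, and saline replicate 2 is the highest column in all 45 down regions.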

How the data were processed

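Peak lists came from OMNI-ATAC-seq of frozen tissue, per the labels' protocols. Per the submitters' processing notes, the tools included MACS2 2.2.7.1, Bowtie2 2.4.4, FastQC 0.11.9 and Trim Galore 0.6.7, on GRCm38 (mm10). No source used here says how Tn5 offsets were handled. For each library the authors deposited a fold ratio and -log10 p and q values per peak, used only within that library. The text number in the authors' deposited tables was read as -10 times log10 of the FDR. Windows reached 250 bp to either side of a summit, strongest percentile first, without overlap. Presence needed an overlap of 50% of the shorter. Genes and promoters are RefSeq's (GRCm38.p6). Strength was fitted with limma 3.58.1 (trend) in R 4.3.3, and the rest run in Python 3.11.15 with pandas 2.3.3, numba 0.67.0 and scipy 1.17.1. Broad peaks entered the strength test once, by their strongest summit, a choice made after seeing the data. Window calls and limma were tested on simulated data. Members and lists were chosen with earlier results of these data known. Named were all 52 deposited regions, 10 windows per direction by weakest percentile and by limma p, 10 genes per direction by net windows and up to 3 genes per list. A selection is printed, and a few are not reported here. Mx1 and Mx2 had no match in the gene table.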

Additional observations from a re-analysis of the deposited data

How the results depend on the processing

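No paired analysis was possible because the compared groups share only replicate number 3. With -log10 q of 5 or more there were 1816 gained and 2553 lost windows, with the 50000 strongest peaks 964 and 764, and with the 150000 strongest 2417 and 2063, so that with both of the last gained windows outnumbered lost ones. Peaks below each limit counted as absent there, so such a window may hold a weaker peak in the other group. Leaving out 1 library gave 5597 to 13384 gained and 5970 to 40664 lost windows, since fewer libraries must match. Strength calls, 0 in each direction, became 1 stronger with the 100000 strongest peaks, and 7 stronger and 1 weaker with each summit ranked on its own, an alternative chosen after seeing the data. Leaving out 1 library gave 0 to 928 stronger and 0 to 315 weaker. The LPS minus saline difference in the share of intervals within 1 kb of a gene end turned to 0.143 percentage points at -log10 q of 5 or more. With 1 library left out, that share ran from -0.578 to 0.46, intervals from -33930 to 11930, covered bases from -14.4 to 5.72 Mb and median width from -3.667 to 9.5 bp. Counting only the 150000 strongest peaks of the other libraries lowered the share of gained windows with a peak to 8.2% and 12.0% in cortex at 6 and 24 h and to 15.5%, 15.8%, 15.6% and 12.5% in hippocampus after LPS at 6, 12 and 24 h and saline, and of lost windows to 2.5%, 2.85%, 10.2%, 9.92%, 9.34% and 12.8% in the same order, since most of these peaks are weak. At an FDR of 0.01 the authors' deposited table keeps 3 up and 10 down regions. With genes within 10 kb the endothelial and mural list had 0% of windows gained. Other causes were not tested.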
